A study of Mus musculus with 7 samples.

Results

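The comparison described here is of HMGA2 overexpression added to a RUNX1 mutation in Ly6G+ myeloid cells of mouse bone marrow. The library labelled as RUNX1 mutant with HMGA2-OE (RUNX1mut/HMGA2-OE) was set against the library labelled RUNX1 mutant (RUNX1mut), over the genes with at least 1 TPM in either of them. TPM is a transcript share: the reads of a gene divided by transcript length, rescaled to a common total per library. Of 28987 genes listed, 11067 met this rule. They comprise 10035 protein-coding genes, 381 pseudogenes, 467 other annotated genes and 184 identifiers without a symbol. Of the 11067, 9366 reached 1 TPM in both libraries, 1397 in RUNX1mut/HMGA2-OE alone and 304 in RUNX1mut alone. Genes of RUNX1mut/HMGA2-OE alone could not be at least 2-fold lower on the scale used below. Genes of RUNX1mut alone could not be at least 2-fold higher. The gene just inside the threshold had 1.00016 TPM in its higher library and the gene just outside had 0.999959, and 1652 members lay between 1 and 2 TPM.

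The study sequenced RNA from bone marrow of individual C57BL/6 mice in 7 libraries. The 4 Ly6G+ libraries were 1 each of Control, RUNX1mut, HMGA2-OE alone and RUNX1mut/HMGA2-OE, sorted by flow cytometry, and the other 3 libraries were stem and progenitor cells (HSC/P) selected on CD117 and sorted for the mutant clone, 2 of RUNX1mut/HMGA2-OE and 1 of HMGA2-OE. The kind of RUNX1 mutation, the promoter and species of the HMGA2 transgene, the cells in which it is driven, the way the clone was marked and the age of the mice were not given in the sources used here. Each Ly6G+ genotype has 1 library, so no difference between them has a replicate check and no test was made. The values compare libraries of single mice, and in bulk RNA fewer cells of a type and less RNA per cell cannot be told apart.

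RUNX1 is a DNA-binding transcription factor required for blood stem cells to form and for myeloid and platelet lineages to mature, and its mutations are frequent in myelodysplastic syndromes and leukemia. HMGA2 is a small chromatin protein that binds AT-rich DNA. It is high in fetal blood stem cells and is held down in adult cells by let-7 microRNAs acting on its transcript. Ly6G is a surface protein of mouse neutrophils, cells that make their granule proteins in sequence, from primary granules in promyelocytes to secondary and gelatinase granules in later stages.

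All 12 neutrophil markers examined were above 100 TPM in each Ly6G+ library, the lowest of them at 287, 309, 270 and 441 TPM in Control, RUNX1mut, HMGA2-OE alone and RUNX1mut/HMGA2-OE. Ly6g itself was at 415, 341, 270 and 441 TPM in that order. Total listed TPM ran from 984650 to 993009 over the Ly6G+ libraries. Read depth is unknown, since TPM does not keep it.

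Hmga2 (chr10:120361275-120476469, GRCm38, GENCODE M21) was at 1.45 TPM in Control and 1.36 in RUNX1mut, and at 3.72 with HMGA2-OE alone and 12.1 in RUNX1mut/HMGA2-OE. Both libraries labelled HMGA2-OE were thus above both without it, and whether the deposited values count transgene reads is not given in the sources used here. Runx1 was at 3.85, 11.6, 3.36 and 21.2 TPM, higher in both libraries with the mutation.

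The largest share of TPM in 3 of the 4 libraries was that of S100a8. S100a8 (chr3:90668978-90670035) and S100a9 (chr3:90692632-90695721) encode the paired subunits of calprotectin, the main cytosolic protein of neutrophils. S100a8 was at 439280 TPM in Control, 398580 in RUNX1mut, 546267 with HMGA2-OE alone and 30622 in RUNX1mut/HMGA2-OE, and so took 44.3%, 40.2%, 55.0% and 3.11% of the listed TPM. S100a9 was at 83597, 82047, 70749 and 141874 TPM. S100a8 over S100a9 was therefore 5.25, 4.86 and 7.72 in the first 3 libraries and 0.216 in RUNX1mut/HMGA2-OE. With S100a8 left out, the listed TPM came to 591887 in RUNX1mut and 954028 in RUNX1mut/HMGA2-OE, a ratio of 1.61.

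RUNX1mut/HMGA2-OE was therefore divided by a factor of 1.58 (0.66 on the log2 scale), the trimmed mean of its log ratios to RUNX1mut, before ratios were formed as log2 of scaled TPM with 1 TPM added. This scale understates the change of genes of low TPM. The median ratio over all 11067 genes was then 0.01, and without the scaling 0.57. On the scaled values S100a8 was lower by a log2 ratio of -4.36 (-3.70 without scaling), and S100a9 differed by 0.13. The transcripts of S100a8 are of 486 to 498 nt. Of 25 genes of at least 10 TPM whose annotated transcripts are all of 460 to 520 nt, S100a8 included, 6 were at least 2-fold higher and 2 at least 2-fold lower. S100a8 was 1 of those 2, and the other fell further.

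Over all members 562 genes were at least 2-fold higher in RUNX1mut/HMGA2-OE (5.08%) and 531 at least 2-fold lower (4.8%). Without scaling the counts were 1543 and 364, so that higher genes made up 80.9% of the calls in place of 51.4%. Outside the Ly6G+ cells, the 2 RUNX1mut/HMGA2-OE HSC/P libraries, which share a genotype and cell type, differed at least 2-fold at 900 of 13017 genes (6.91%), against 9.88% in the comparison described here.

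The 2-fold differences were concentrated by transcript length. Of 1187 genes with an annotated transcript of 360 to under 400 nt and none of 400 to under 450 nt, 273 were at least 2-fold lower (23.0%) and 15 higher (1.26%). Of 1746 genes with a transcript of 400 to under 450 nt and none of 360 to under 400 nt, 307 were at least 2-fold higher (17.6%) and 52 lower (2.98%). Among the 7425 genes with neither, 2.36% were higher and 1.49% lower. The HSC/P replicates did not show this, with 3.20% higher and 3.95% lower in the shorter window. In HMGA2-OE over Control, 3.64% of all genes compared were at least 2-fold higher and 4.12% lower. There, 34.8% of genes with a transcript of 370 to 379 nt were at least 2-fold lower and 22.8% of those with one of 380 to 389 nt were higher, so the windows differed between the pairs.

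**Figure D1:**
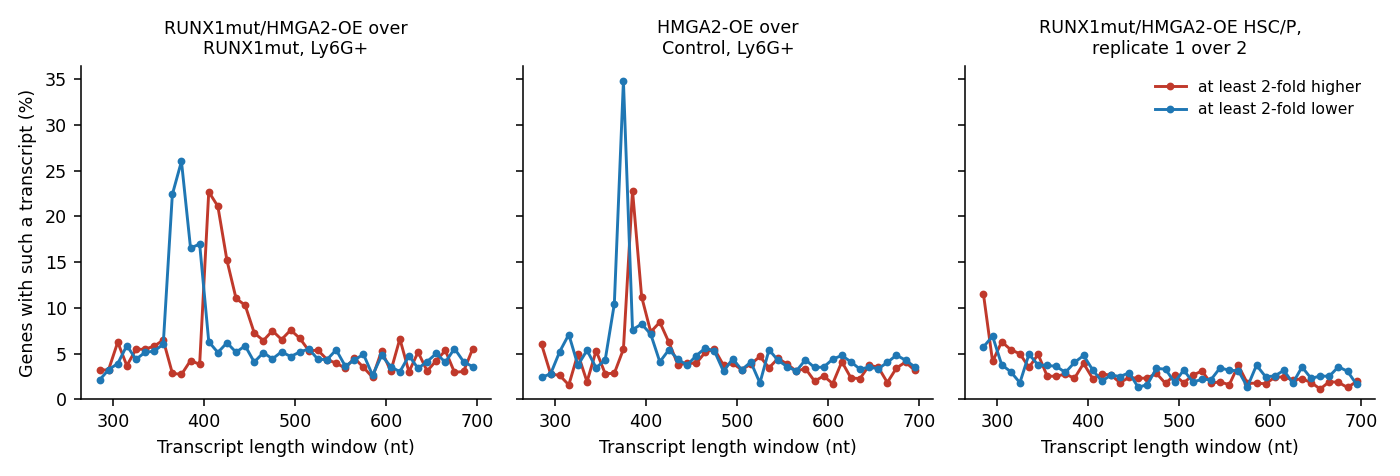
Percent of genes at least 2-fold higher or lower by annotated transcript length in windows of 10 nt (x axis, nt), in 3 pairs of libraries; a gene counts in each window in which it has a transcript. In RUNX1mut/HMGA2-OE over RUNX1mut the share lower reaches 26.0% at 370 to 379 nt and the share higher 22.7% at 400 to 409 nt, and the HSC/P replicates show no such peaks.

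The part of transcript length in single ratios was not tested. Results are given first for genes with no annotated transcript under 500 nt, and for other genes the length window is named. In that set of 5235 genes, 85 were at least 2-fold higher (1.62%) and 73 lower (1.39%). Together these were 3.02% of the set, and 5.76% of such genes were at least 2-fold apart between the HSC/P replicates.

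The highest ratio among protein-coding genes of that set with at least 10 TPM was that of Ngfr (chr11:95568818-95587735), the low-affinity neurotrophin receptor p75. Ngfr was at 0.048 TPM in Control and 0.056 in RUNX1mut, and at 11.4 with HMGA2-OE alone and 36.8 in RUNX1mut/HMGA2-OE, a log2 ratio of 4.53 with the mutation and 3.90 without it. It was near 0 in both libraries without HMGA2-OE and was between 155 and 183 TPM in the 3 HSC/P libraries, all of which carry HMGA2-OE. Hmga2 followed the same order with ratios of 1.88 and 1.24.

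Igf2bp2, an RNA-binding protein that stabilises growth-related transcripts and is a known target of HMGA2, was at 0.17, 0.079, 2.94 and 29.7 TPM in Control, RUNX1mut, HMGA2-OE alone and RUNX1mut/HMGA2-OE. Its ratio was 4.20 with the mutation and 2.04 without it, and it has a transcript of 400 to under 450 nt. Plag1, a zinc finger transcription factor of the same axis, was at 0.070 TPM in RUNX1mut and 2.81 in RUNX1mut/HMGA2-OE (1.38). Of the 8 genes of the HMGA2 and let-7 list that were compared, 4 were at least 2-fold higher and none lower, with a median of 0.87. Over all members 5.08% were at least 2-fold higher. The 4 were Ngfr, Igf2bp2, Plag1 and Hmga2 itself. Ngfr, Igf2bp2 and Plag1 were under 1 TPM in RUNX1mut and were compared only through RUNX1mut/HMGA2-OE. They could therefore not be at least 2-fold lower, and Hmga2 is the gene that was overexpressed. The list was chosen with earlier results of these data known, so its count is a description only. The other 4 were Hmga1 (0.36), the related AT-hook protein, Arid3a (0.37), Lin28a (0.27), which blocks let-7 maturation, and Mycn (-0.16).

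Asprv1, an aspartic protease, was at 68.0, 67.1, 256 and 513 TPM in the 4 libraries, with a ratio of 2.26 both with and without the mutation. Abcg3, a member of the ABCG transporter family, was at 1.35, 2.93, 9.65 and 23.4 TPM (2.01 with and 2.52 without). Mlst8, a subunit of the mTOR complexes, was at 9.88, 6.99, 20.6 and 37.0 TPM (1.62 and 1.34). In each of these genes both libraries with HMGA2-OE were above both without it. Thbs1, the matrix glycoprotein thrombospondin-1, had ratios of 1.04 and 1.20, and Anxa6, a calcium-dependent membrane-binding annexin, 1.12 and 1.04.

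The pair HMGA2-OE over Control shares no library with the pair described here. Of 4259 genes with no transcript under 500 nt that were compared in both pairs, 39 were at least 2-fold higher with the mutation and 50 without it, and 9 were higher in both (23.1% of the 39 and 18.0% of the 50). Those 9 hold the 7 protein-coding genes named above outside Igf2bp2 and Plag1, namely Ngfr, Asprv1, Abcg3, Mlst8, Hmga2, Anxa6 and Thbs1. The share at least 2-fold higher over all genes of that kind was 1.25% in HMGA2-OE over Control, and the share lower was also 1.25%. None of the 4259 was at least 2-fold higher with the mutation and lower without it. Of the 48 that were at least 2-fold lower with the mutation, 9 were higher without it (18.75%) and 7 were lower in both pairs (14.6%). Those 9 were 18.0% of the 50 higher without the mutation.

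**Figure D2:**
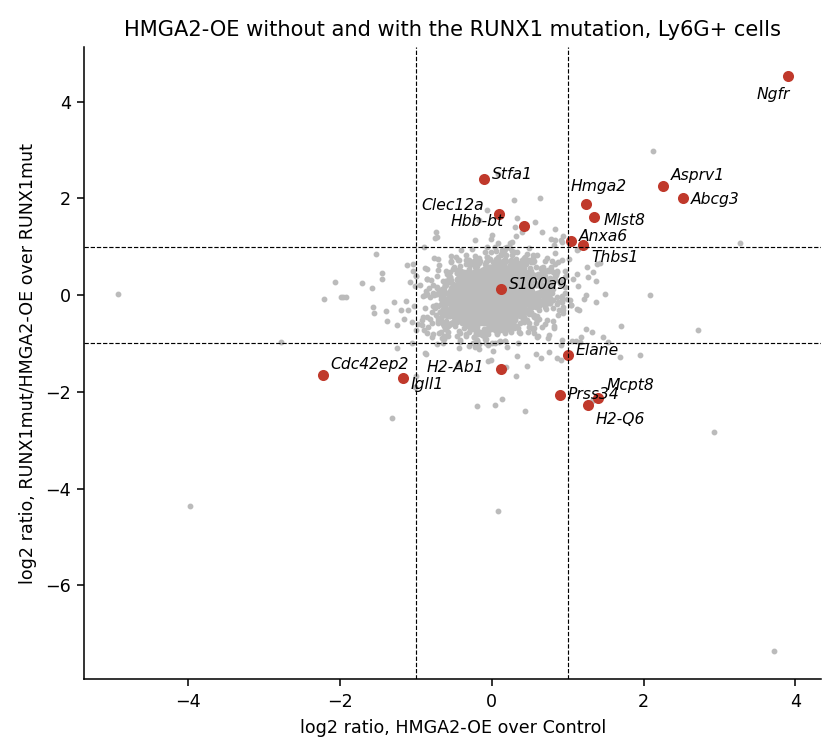
Log2 ratio in HMGA2-OE over Control (x axis) and in RUNX1mut/HMGA2-OE over RUNX1mut (y axis) for genes with no annotated transcript under 500 nt; each point is a gene, named genes are red and dashed lines mark 2-fold. Ngfr, Asprv1 and Abcg3 lie in the upper right, Stfa1 and Clec12a are high on the y axis alone, and Mcpt8 and H2-Q6 are below on y and above on x.

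The stefin A genes formed the list with the highest median. They encode small inhibitors of cysteine cathepsins, lie in a tandem cluster on chromosome 16 and are abundant in mouse neutrophils. Stfa1 (chr16:36276951-36285373) was at 191 TPM in Control, 604 in RUNX1mut, 138 with HMGA2-OE alone and 5049 in RUNX1mut/HMGA2-OE. Its ratio was 2.41, against -0.10 in HMGA2-OE over Control. Stfa2 was at 26.5, 231, 57.2 and 2126 TPM (2.54), Stfa3 at 24.1, 173, 33.2 and 2312 TPM (3.08) and Stfa2l1 at 390, 674, 663 and 3851 TPM (1.86). Each was highest in RUNX1mut/HMGA2-OE, and Stfa1, Stfa2 and Stfa3 were higher in RUNX1mut than in either library without the mutation.

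Of the 7 stefin cluster genes compared, 6 were at least 2-fold higher and 1 lower, with a median of 2.26. Over all members 5.08% were at least 2-fold higher and the median was 0.01. The lower one, BC117090, was at 12.4 TPM in RUNX1mut and 0.88 in RUNX1mut/HMGA2-OE and has a transcript in the 360 to under 400 nt window. BC100530, higher by 1.51, also has one in that window. Stfa3, Stfa2l1 and Gm5483 have one in the 400 to under 450 nt window. Stfa1 and Stfa2 have neither, and the median of Stfa1 and Stfa2 was 2.47. The genes are near copies of each other, so how reads were divided among them is uncertain. The summed deposited TPM of the cluster was 1126, 3176, 1728 and 24171 in Control, RUNX1mut, HMGA2-OE alone and RUNX1mut/HMGA2-OE. Gm5483 alone made up 1363 of it in RUNX1mut and 10300 in RUNX1mut/HMGA2-OE. In HMGA2-OE over Control, 5 of the 7 were at least 2-fold higher (3.64% of all genes compared there), with a median of 1.13.

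Since 6 of these genes were higher together, the 150 bases before their start sites in RefSeq (GRCm38.p6) were compared. Entries were matched for 5 of the 8 stefin names looked up. Among Stfa1, Stfa2, Stfa2l1 and Stfa3 the windows were 78.1% to 86.4% identical in pairs, against 48.3% to 49.7% with Csta1 of the same cluster. The Csta1 window is offset from the others, as its runs below show, so the lower identity does not compare matching stretches throughout. Csta1 reached 0.143 TPM in RUNX1mut/HMGA2-OE and was listed at 0 in the other 3. The window of Stfa1 lies within the bounds of its GENCODE M21 gene and that of Stfa2 overlaps them in part, and neither is shown. The other 2 are shown 5′ to 3′ on the strand of the gene, chr16:36156661-36156810 (+) for Stfa2l1 and chr16:36455393-36455542 (-) for Stfa3, with capitals marking the 5 runs of at least 8 bases that all 4 share.

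Stfa2l1: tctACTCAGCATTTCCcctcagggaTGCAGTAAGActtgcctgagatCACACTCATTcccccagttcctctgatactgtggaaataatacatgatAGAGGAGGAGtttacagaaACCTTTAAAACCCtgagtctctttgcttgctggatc

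Stfa3: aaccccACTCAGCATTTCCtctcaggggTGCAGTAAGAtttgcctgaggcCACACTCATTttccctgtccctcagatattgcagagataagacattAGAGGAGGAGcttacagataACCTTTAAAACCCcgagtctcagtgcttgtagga

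The run nearest the start site, ACCTTTAAAACCC, began at -36 in Stfa2l1 and -34 in Stfa3 and was present on either strand in 7 of 27025 promoter windows of the same length (0.0259%). ACTCAGCATTTCC was present in 6 (0.0222%), TGCAGTAAGA in 15 (0.0555%), CACACTCATT in 18 (0.0666%) and AGAGGAGGAG in 141 (0.522%). The window of Csta1 also holds ACTCAGCATTTCC and CACACTCATT. There CACACTCATT lies at the end next to the annotated start site, while in the 4 Stfa windows it began between -98 and -103. The runs were picked from these sequences, and a shared run in copies of one gene is a description of the sequences only.

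Genes of the red cell lineage were another group that was higher. The 2 adult alpha globin genes Hba-a1 and Hba-a2, which are near copies, were at 127 and 225 TPM in RUNX1mut and 584 and 1129 in RUNX1mut/HMGA2-OE (1.54 and 1.67). Hbb-bt, an adult beta globin gene, was at 12.01, 61.6, 12.8 and 265 TPM in Control, RUNX1mut, HMGA2-OE alone and RUNX1mut/HMGA2-OE (1.43). Its neighbour Hbb-bs was at 32.4, 116, 28.8 and 4934 TPM (4.74) and has a transcript of 400 to under 450 nt. Klf1, the erythroid transcription factor, was at 2.22 and 9.15 TPM (1.08) in the pair, the anion exchanger Slc4a1 at 1.65 and 8.74 (1.30), the Rhesus protein Rhd at 2.97 and 12.99 (1.22) and the erythropoietin receptor Epor at 0.44 and 2.96, just past 2-fold.

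Of 22 erythroid genes compared 9 were at least 2-fold higher (5.08% over all members) and none lower, with a median of 0.81, and 21 were above 0. Members under 1 TPM in RUNX1mut, Epor among them, were compared only through RUNX1mut/HMGA2-OE and could not be at least 2-fold lower. Their number is not given here. The median was 0.93 over the 16 without a transcript of 360 to under 450 nt. Summed deposited erythroid TPM was 189 in Control, 618 in RUNX1mut, 159 with HMGA2-OE alone and 7152 in RUNX1mut/HMGA2-OE. Hbb-bs, with its transcript of 400 to under 450 nt, alone made up 116 of it in RUNX1mut and 4934 in RUNX1mut/HMGA2-OE. No gene of the list was listed at 0 in a Ly6G+ library. In HMGA2-OE over Control none of 11 was at least 2-fold higher.

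**Figure D3:**
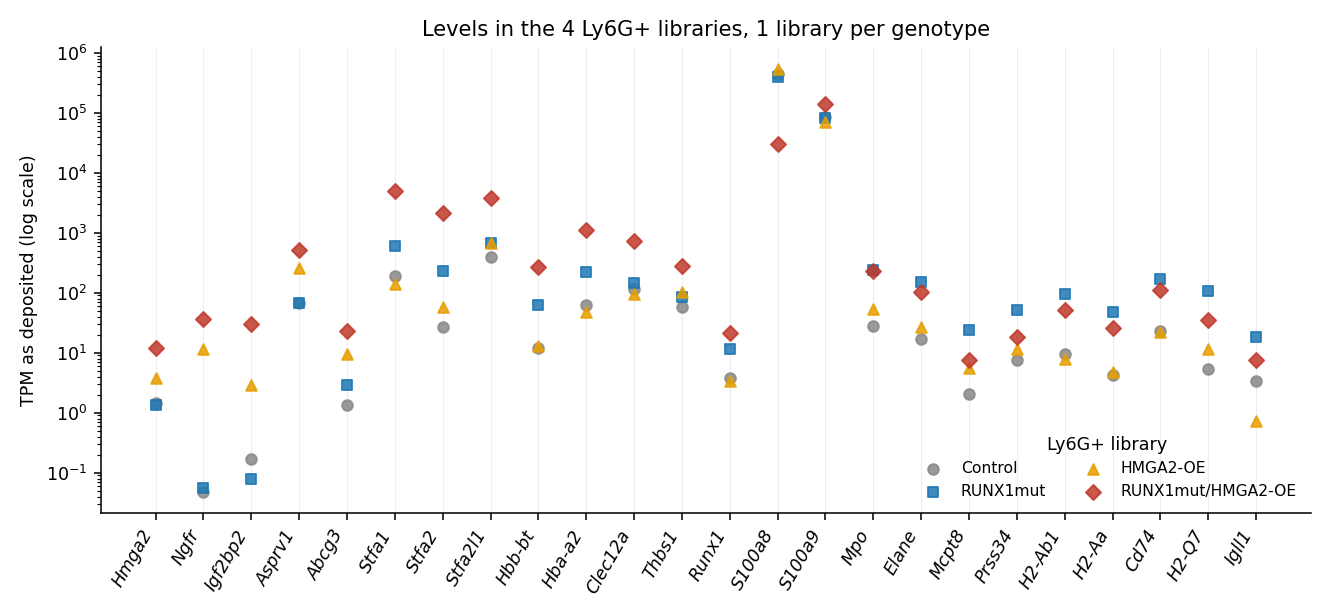
Deposited TPM (y axis, log scale) of 24 genes in the 4 Ly6G+ libraries, 1 point per library and 1 library per genotype. Ngfr is near 0.05 TPM in both libraries without HMGA2-OE, S100a8 stands lowest in RUNX1mut/HMGA2-OE at 30622 TPM, and the MHC class II genes are highest in RUNX1mut.

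Of the other genes with no transcript under 500 nt that were at least 2-fold higher, 3 are described here, chosen after their values were seen. Clec12a, an inhibitory C-type lectin of myeloid cells, was at 114, 146, 95.1 and 742 TPM (1.68) in Control, RUNX1mut, HMGA2-OE alone and RUNX1mut/HMGA2-OE, so it stood apart in 1 library. Prok2, the secreted chemoattractant Bv8 of neutrophils, was at 11.1, 5.06, 16.01 and 22.9 TPM (1.36). P2rx1, an ATP-gated cation channel, was at 6.41, 4.82, 9.05 and 18.8 TPM (1.15). The list of C-type lectin and Fc receptors had a median of 0.03. Clec12a was the 1 of 17 genes at least 2-fold higher and 1 was lower, shares near the 5.08% and 4.8% over all members.

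Most genes of antigen presentation were lower in RUNX1mut/HMGA2-OE than in RUNX1mut, though still above Control. H2-Ab1 and H2-Aa encode the chains of the class II molecule I-A and Cd74 its invariant chain. H2-Ab1 was at 9.37 TPM in Control, 94.3 in RUNX1mut, 7.96 with HMGA2-OE alone and 50.9 in RUNX1mut/HMGA2-OE (-1.52). H2-Aa was at 4.25, 47.2, 4.84 and 25.9 TPM (-1.46), Cd74 at 22.9, 167, 22.5 and 109 TPM (-1.26) and H2-Eb1 at 1.87, 28.1, 1.37 and 20.8 TPM (-1.03). The order was the same in these 4 genes: RUNX1mut highest, RUNX1mut/HMGA2-OE next, and both libraries without the mutation far below. Of 9 class II genes compared 5 were at least 2-fold lower (4.8% over all members) and none higher, with a median of -1.03. Without scaling none of the 9 was at least 2-fold lower and the median was -0.42.

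The class Ib genes H2-Q6 and H2-Q7, near copies of each other, were at 5.17 and 5.39 TPM in Control, 111 and 107 in RUNX1mut, 10.8 and 11.7 with HMGA2-OE alone and 34.9 and 35.5 in RUNX1mut/HMGA2-OE. Their ratios were -2.27 and -2.20 with the mutation and 1.27 and 1.33 without it.

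Some genes of basophils, eosinophils and mast cells were at least 2-fold lower on the scaled values. The basophil proteases Mcpt8 and Prss34 were at 2.07 and 7.57 TPM in Control, 24.2 and 51.1 in RUNX1mut, 5.53 and 11.6 with HMGA2-OE alone and 7.52 and 18.2 in RUNX1mut/HMGA2-OE (-2.13 and -2.06). Ear1, an eosinophil-associated ribonuclease, was at 7.22 and 3.89 TPM in the pair (-1.25), and the eosinophil granule protein Prg2 at 70.1 and 56.6 (-0.95). The IgE receptor chain Fcer1a was at 2.96 and 0.55 TPM (-1.56) and eosinophil peroxidase Epx at 5.45 and 2.65 (-1.27). Fcer1a was compared only through RUNX1mut and could not be at least 2-fold higher. Of 17 genes of this list 6 were at least 2-fold lower and none higher, against 4.8% and 5.08% of all members, with a median of -0.69; without scaling 3 were lower, 2 were higher and the median was -0.29. Summed deposited TPM of the list, without scaling, was 529 in RUNX1mut and 554 in RUNX1mut/HMGA2-OE. In HMGA2-OE over Control 5 of 10 were at least 2-fold higher, against 3.64% of all genes compared there, with a median of 0.95.

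Primary granule genes, made in promyelocytes, were mostly lower on the scaled values. Elane, neutrophil elastase, was at 16.6, 153, 26.7 and 101 TPM in Control, RUNX1mut, HMGA2-OE alone and RUNX1mut/HMGA2-OE (-1.25). Mpo, myeloperoxidase, was at 28.4, 235, 53.2 and 228 TPM (-0.69), and Ctsg, cathepsin G, at 2.79, 19.7, 5.81 and 15.0 TPM (-0.98). In each of the 3 both libraries with the mutation were above both without it. Of 13 genes compared 2 were at least 2-fold lower (4.8% over all members), none was higher and 11 were below 0, with a median of -0.66; without scaling the median was -0.04 and 6 of the 13 were above 0, so the direction of the list rests on the scaling. In HMGA2-OE over Control 5 of 13 were at least 2-fold higher, against 3.64% of all genes compared there.

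Later granule genes differed little. None of 20 secondary granule genes, which include lactoferrin (Ltf), lipocalin-2 (Lcn2) and cathelicidin (Camp), was at least 2-fold apart, with a median of 0.02. Ltf was at 11372 TPM in RUNX1mut and 18314 in RUNX1mut/HMGA2-OE, a ratio of 0.03 after scaling. None of 11 gelatinase granule and metalloproteinase genes (-0.05) and none of 9 subunits and regulators of the NADPH oxidase (0.05) passed 2-fold. Without scaling these medians were 0.67, 0.60 and 0.70, and 2 secondary granule genes were at least 2-fold higher.

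Of 16 B lymphoid genes 3 were at least 2-fold lower, where all members gave 4.8%, and none was higher. They were Igll1 and Vpreb1, the surrogate light chain of pre-B cells, at 18.2 and 14.1 TPM in RUNX1mut and 7.68 and 5.95 in RUNX1mut/HMGA2-OE (-1.71 and -1.66), and the terminal transferase Dntt at 3.70 and 2.04 TPM (-1.04). Vpreb1 has a transcript of 400 to under 450 nt. The list's median of -0.45 turned to 0.14 without scaling. Summed deposited TPM of the list, not divided by the scaling factor of 1.58, was 584 in RUNX1mut and 874 in RUNX1mut/HMGA2-OE. On the same deposited values the T and NK cell list summed to 49.8 and 75.8 TPM and the megakaryocyte and platelet list to 67.9 and 95.3 TPM. Their median ratios after scaling were -0.04 and 0.00. In the pair the T cell surface gene Thy1, the mast cell proteases Mcpt4 and Tpsb2 and the platelet receptor Gp6 were listed at 0 in one library or both, and no B lymphoid gene was. The part of other cell types in the ratios of shared genes was not tested.

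Interferon response genes were mostly slightly lower: 24 of 28 were below 0 with a median of -0.27, which turned to 0.27 without scaling. Zbp1, a sensor of Z-form nucleic acid, was at 21.3 and 13.6 TPM in RUNX1mut and RUNX1mut/HMGA2-OE (-1.22) and was the 1 gene at least 2-fold lower. Mx1, an interferon-induced GTPase with a transcript of 400 to under 450 nt, was the 1 gene at least 2-fold higher (1.24). Over all members 4.8% were at least 2-fold lower and 5.08% higher.

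In several lists whose medians lay near 0, the genes past 2-fold had a transcript in the length windows. The medians were -0.19 for ribosomal protein, -0.16 for cell cycle and -0.07 for oxidative phosphorylation genes. The 5 of 49 ribosomal protein genes at least 2-fold lower (4.8% over all members) were Rps29 (-4.88), Rpl38 (-4.70), Rps28 (-3.76), Rps21 (-2.93) and Rpl30 (-1.03). Each has a transcript of 360 to under 400 nt, and Rps28 and Rps21 also have one of 400 to under 450 nt. Of the 27 with no transcript of 360 to under 450 nt none was at least 2-fold apart. Rpl38 was at 857, 596, 13.02 and 34.7 TPM in Control, RUNX1mut, HMGA2-OE alone and RUNX1mut/HMGA2-OE. Of 39 cell cycle genes 2 were at least 2-fold lower, a share near the 4.8% over all members, and both, the kinase Cdk1 (-1.64) and the checkpoint protein Bub1b (-1.76), have a transcript of 360 to under 400 nt. Of 36 oxidative phosphorylation genes 4 were at least 2-fold higher and 1 lower, against 5.08% and 4.8% over all members. Among them was Sdha, a subunit of complex II, at 63.4 and 1248 TPM (3.62). None of the 20 outside the windows was at least 2-fold apart. The RUNX paralogs Runx3 (1.59) and Runx2 (1.37) and the corepressor Tle3 (1.32) were the 3 of 9 RUNX list genes at least 2-fold higher (5.08% over all members). Each has a transcript of 400 to under 450 nt, and Runx3 and Tle3 also have one of 360 to under 400 nt. Runx1, with neither window, had a ratio of 0.20. Il1b, the inflammatory cytokine, was at 597, 722, 2337 and 415 TPM (-1.45) and has a transcript of 360 to under 400 nt.

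**Figure D4:**
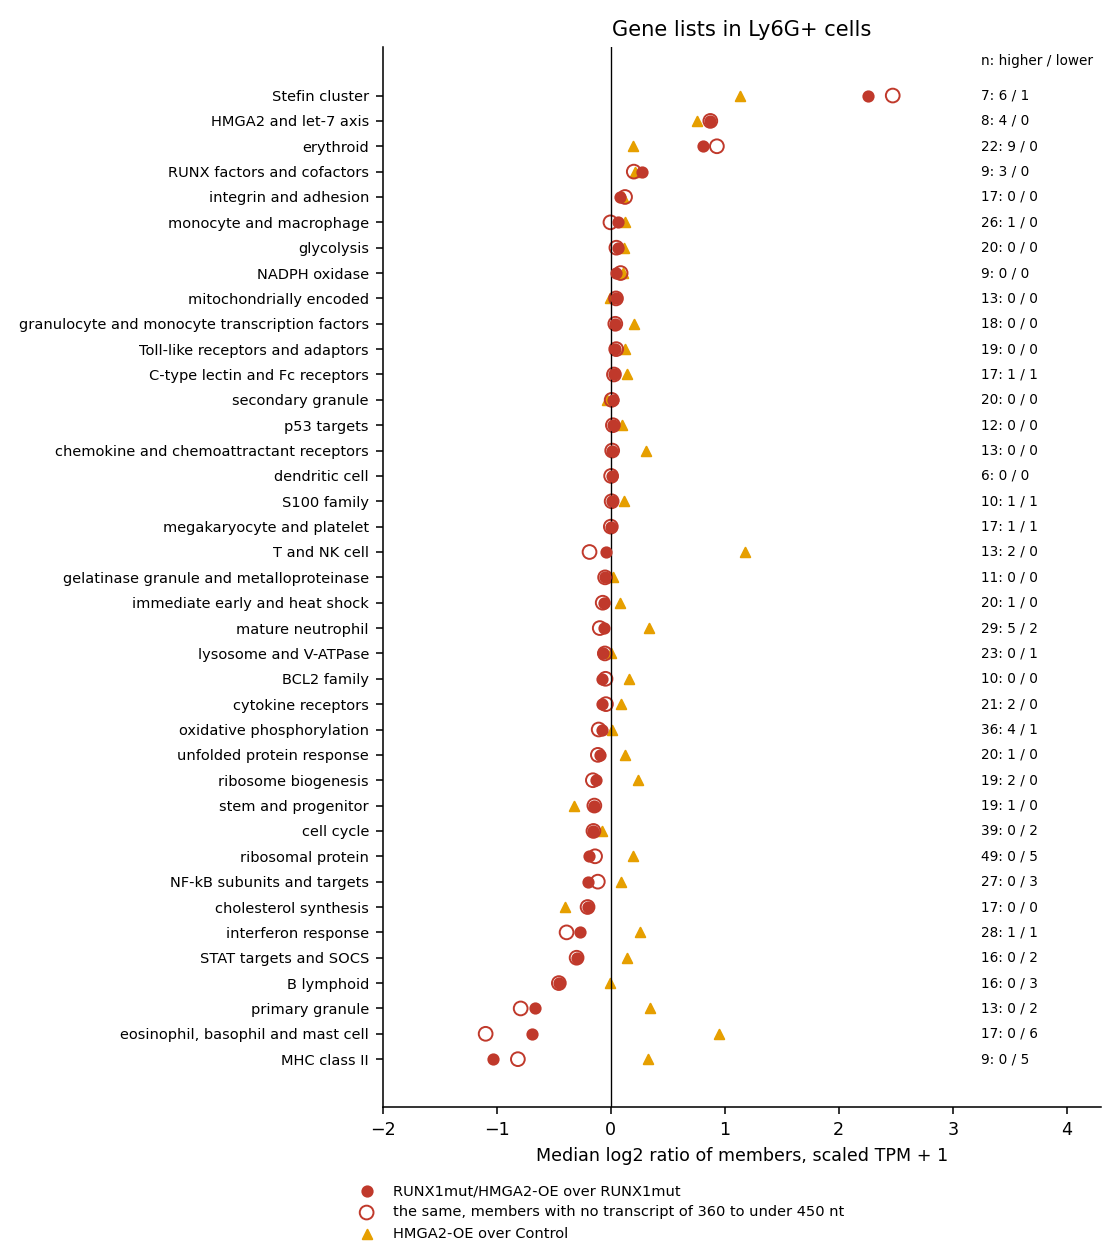
Median log2 ratio (x axis) of the members of each gene list with at least 5 members compared; filled red points are RUNX1mut/HMGA2-OE over RUNX1mut, open circles the same without genes with a transcript of 360 to under 450 nt, and triangles HMGA2-OE over Control where at least 5 members were compared. At the right stand the number compared and the numbers at least 2-fold higher and lower; the stefin cluster has the highest median (2.26) and MHC class II the lowest (-1.03).

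Ranked over all protein-coding genes of at least 10 TPM, 18 of the 20 largest rises and 18 of the 20 largest falls were genes with a transcript of 360 to under 450 nt. The largest ratio was that of the histone gene Hist1h4m, listed at 0 in Control, RUNX1mut and HMGA2-OE and at 136 TPM in RUNX1mut/HMGA2-OE. Rps12 was listed at 0 in the same 3 libraries and at 75.2 TPM in the fourth. In the 2 RUNX1mut/HMGA2-OE HSC/P replicates Rps12 was at 7.52e-09 and 69.9 TPM, and in HMGA2-OE HSC/P at 1045. It thus also switched between near 0 and a high value within 1 genotype and cell type. Fbxw9, an F-box protein, was at 0.86 and 141 TPM in the Ly6G+ pair (5.61). Sidt1, a transmembrane protein linked to RNA transport, was at 0.034 and 35.5 there (4.51). At the other end, Atp5mpl, a small ATP synthase subunit, was at 22.5 TPM in Control, 7721 in RUNX1mut, 15.3 with HMGA2-OE alone and 34.5 in RUNX1mut/HMGA2-OE (-8.40), so that RUNX1mut was the library that stood apart. Fcor was at 7.002, 1358, 5.61 and 9.86 TPM (-7.55), again high in RUNX1mut alone. Atp5k (-5.96) and the adaptor Grb2 (-4.58) were low in both libraries with HMGA2-OE, Grb2 at 2365, 974, 33.9 and 62.6 TPM.

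Among protein-coding genes of at least 10 TPM with no transcript under 500 nt the largest falls were Hist1h4d, a histone H4 gene with near copies, at 59.5 and 2.77 TPM (-4.45), and Det1, a component of a ubiquitin ligase, at 10.7 and 2.18 TPM (-2.29). Cdc42ep2, an effector of the GTPase Cdc42, was lower in both pairs, at 17.1, 5.75, 2.22 and 1.81 TPM in Control, RUNX1mut, HMGA2-OE alone and RUNX1mut/HMGA2-OE (-1.65 with and -2.23 without the mutation).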

How the data were processed

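RNA of 7 libraries was sequenced. The submitters' processing notes name bcl2fastq, CASAVA 1.8, kallisto and the build mm10; the version of kallisto, its index and the annotation release were not given in the sources used here. Values deposited by the authors are TPM. No header names the unit, which was read from decimal values and nearly equal column totals, and the file name speaks of counts. Symbols, positions and transcript lengths came from GENCODE M21, for 27458 of 28987 identifiers.

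A scaling factor per pair was a trimmed mean of log ratios without weights (0.3 trimmed on ratios, 0.05 on levels), taken over genes of at least 1 TPM in either library. Ratios are log2 of scaled TPM plus 1, and a difference of at least 2-fold (1 on the log2 scale) was counted, with no test. On simulated pairs with 200 changed genes in each of 5 rounds, 99.5% to 100% of the changed genes were found over 11067 genes. The changed genes all had at least 10 TPM and were moved by well over 2-fold. The noise had a standard deviation of 0.3 on the log2 scale, against 0.60 for the ratios of the HSC/P replicates. No effect of transcript length was simulated. The result therefore does not give the share found for genes of low TPM or changes near 2-fold.

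The members, the 41 gene lists (780 distinct genes, 670 among the members) and the tests were chosen with earlier results of these data known. Named were Hmga2, Runx1, S100a8, S100a9 and Ly6g, the 20 largest rises and 20 largest falls among protein-coding genes of at least 10 TPM, up to 10 per direction past 2-fold in one direction in both pairs, up to 5 per direction in opposite ones, and up to 6 members of at least 10 TPM per list. The text describes some of these, clone names were counted only, and the rule was repeated among genes with no transcript under 500 nt. Other genes, among them list members under 10 TPM and the stefin clones BC117090, BC100530 and Gm5483, were chosen after their values were seen. The sex-linked list had no gene compared and the stromal list had 3. Other scalings, added TPM and filters were tried. Python 3.11.15, pandas 2.3.3, numpy 2.4.6, Biopython 1.88 and matplotlib 3.10.9 were used.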

Additional observations from a re-analysis of the deposited data

Results flagged for a closer look

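The naming rule picks 14 genes at least 2-fold apart in opposite directions in the 2 Ly6G+ pairs, and the difference between the pairs was not tested. The rule takes up to 5 per direction, so the 14 do not show the balance of directions. Over all 9147 genes compared in both pairs, 16 were higher with the mutation and lower without it (4.48% of 357 higher with it). The reverse held for 77 (18.1% of 425 lower with it), while 54 were higher in both pairs and 133 lower in both. Ratios are log2, RUNX1mut/HMGA2-OE over RUNX1mut first and HMGA2-OE over Control second. Higher with the mutation and lower without it were Setd4 (3.19 and -2.11), Frmd4b (2.65 and -1.80), Dok2 (2.19 and -1.20), Extl1 (1.76 and -2.15) and Fam8a1 (1.499 and -1.38). Lower with the mutation and higher without it were Nop14 (-3.58 and 2.53), Lhx1 (-3.46 and 2.58), Romo1 (-2.54 and 3.03), Mbtps2 (-2.51 and 3.36) and Ino80e (-1.97 and 2.85). Between the HSC/P replicates, which share a genotype, Dok2 differed by -4.04 and Extl1 by 1.54. The rest of these 10 genes differed by less than 2-fold there, except Lhx1, which was too low to be compared. All 10 have a transcript of 360 to under 450 nt. The other 4 have none under 500 nt: H2-Q6 (-2.27 and 1.27), H2-Q7 (-2.20 and 1.33), Mcpt8 (-2.13 and 1.41) and Elane (-1.25 and 1.01). All 4 were highest in RUNX1mut and lowest in Control.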

How the results depend on the processing

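No paired analysis was possible because each Ly6G+ genotype has 1 library, and for the same reason no library could be left out. Counts of genes at least 2-fold higher and lower in RUNX1mut/HMGA2-OE over RUNX1mut were 562 and 531. Higher genes numbered 1543 without scaling (364 lower) and 1054 with 0.1 TPM added (744 lower). Both counts were 246 and 289 with 5 TPM added, 325 and 341 for genes of 1 TPM in both libraries, 84 and 74 without genes with a transcript under 500 nt when the scaling was also refitted, and 173 and 112 without those of 360 to under 450 nt, a setting chosen after seeing the data. For HMGA2-OE over Control, 342 and 387, they were 218 and 497 without scaling, 156 and 205 with 5 TPM added, 209 and 247 for genes of 5 TPM in either library, 207 and 201 for 1 TPM in both, 54 and 56 without transcripts under 500 nt, and 92 and 89 without those of 360 to under 450 nt. Of 39 lists 18 had a median above 0, against 36 without scaling and 9 where all genes above 0 were kept. The HSC/P replicates differed at 6.91% of genes, at 11.1% with 0.1 TPM added, 2.16% with 5 TPM added and 3.93% for 1 TPM in both. Of 280 single ratios, 230 moved by more than the spread of the HSC/P replicates (0.60) without scaling. With 5 TPM added 39 did and with 0.1 TPM added 19. None did under upper quartile scaling, median scaling or sums without S100a8 and S100a9. These scalings removed 0.63, 0.66 and 0.67 from RUNX1mut/HMGA2-OE over RUNX1mut, against 0.66 in the main setting, so they could not move a ratio past that spread. Leaving out the scaling moves ratios of high TPM past it by its size alone. Depth is unknown, so the counting error of low values could not be given.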

Other observations

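The following features with no transcript under 500 nt are outside the naming rule and were chosen after their values were seen. The processed pseudogene Gm7206 was at 155 TPM in Control and 162 in RUNX1mut, stood at 1594 with HMGA2-OE alone and was listed at 0 in RUNX1mut/HMGA2-OE. The long noncoding gene Gm17333 was at 17.8 and 19.4 TPM in Control and RUNX1mut, at 0.15 in HMGA2-OE and listed at 0 in RUNX1mut/HMGA2-OE. Gm17613, another, was listed at 0 in Control and was at 2.91, 2.61 and 46.8 TPM in RUNX1mut, HMGA2-OE and RUNX1mut/HMGA2-OE. The pseudogene H2-K2, a relative of the class I gene H2-K1, was at 95.3, 75.2, 100.3 and 21.1 TPM in Control, RUNX1mut, HMGA2-OE alone and RUNX1mut/HMGA2-OE. Immunoglobulin constant genes varied between single libraries: Ighg2b was at 0.51, 6.07 and 8.09 TPM and listed at 0 in RUNX1mut/HMGA2-OE, while Ighg1 was at 1.37, 1.96, 16.9 and 8.22 TPM.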
